A study of Mus musculus with 6 samples.

Results

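The 45 genes described here are those named for the nuclear subunits of mitochondrial complex I and the factors that assemble it, read in brown adipose tissue (BAT) of lean and obese mice. They were chosen by name, as every gene whose symbol begins with Nduf and holds no hyphen, out of 47729 genes listed for each mouse. By role, 36 of the 45 encode structural subunits, 7 are assembly factors of the Ndufaf series, and the remaining pair is Ndufa4 and its paralog Ndufa4l2. Both of these carry a complex I name, although Ndufa4 is now regarded as a subunit of cytochrome c oxidase. Ndufb1 and the gene-family members Ndufb4b and Ndufb4c were not analysed here.

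Wild type male C57BL/6J mice received either a 45% high-fat diet (HFD) or the standard rodent diet that served as low-fat diet (LFD), for 4 weeks from 6 weeks of age, so that BAT was taken at about 10 weeks. There were 3 mice per diet, and total RNA of the right interscapular BAT of each mouse was sequenced after removal of ribosomal RNA. The authors picked these mice to span the range of fat mass in each diet, and the sources do not tie a replicate number to a fat mass. Values are RSEM expected counts and TPM, a level per transcript length that is scaled to a fixed total in each library.

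Complex I, NADH:ubiquinone oxidoreductase, is the largest enzyme of the respiratory chain and the entry point for electrons carried by NADH. Its peripheral arm holds the NADH-oxidising N module and the quinone-reducing Q module, and its membrane arm pumps protons through subunits that are encoded by mitochondrial DNA. Most other subunits are accessory, and dedicated assembly factors build the arms and leave the finished enzyme. In brown adipocytes the proton gradient that the chain makes is dissipated as heat through uncoupling protein 1, and the tissue is dense in mitochondria.

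The 6 libraries held between 17156991 and 21603487 counts and differed in the share of mitochondrial RNA and in the levels of cell type markers. Counts on mitochondrial genes made up 22.7, 16.5 and 8.50% of the total in HFD-fed replicates 1, 2 and 3 and 13.8, 9.12 and 3.87% in the LFD-fed mice. Brown adipocyte markers, 12 genes with Ucp1 among them, summed to 6242, 7948 and 2229.6 TPM in the HFD-fed mice and 2060.2, 684 and 337 TPM in the LFD-fed mice. In LFD replicate 2 several of these genes were scarce, with Ucp1 at 11.0, Elovl3 at 0.71, Dio2 at 1.92 and Cidea at 18.85 TPM. Cox8b, also found in heart and muscle, gave 388 TPM of that mouse's sum. The 20 skeletal muscle markers summed to 33.5 to 419 TPM under HFD and 2320.3 to 16247 TPM under LFD, and all 20 had a lower fitted level under HFD. The 8 general adipocyte markers summed to 5907 to 9533 TPM under HFD and 4570.0 to 17758 TPM under LFD, 12 macrophage markers to 2279.8 to 5012 and 663 to 5117 TPM, 6 endothelial markers to 95.1 to 409 and 120.3 to 245 TPM, and 12 T and NK cell markers to 19.8 to 61.1 and 2.06 to 16.7 TPM. The muscle, brown adipocyte, and T and NK cell sums did not overlap between the diets. No marker was at 0 in any mouse. Muscle fibers and brown adipocytes both express complex I, and in bulk tissue fewer cells of a type and less RNA per cell cannot be told apart. What part these differences have in the levels of the Nduf genes was not tested.

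**Figure D1:**
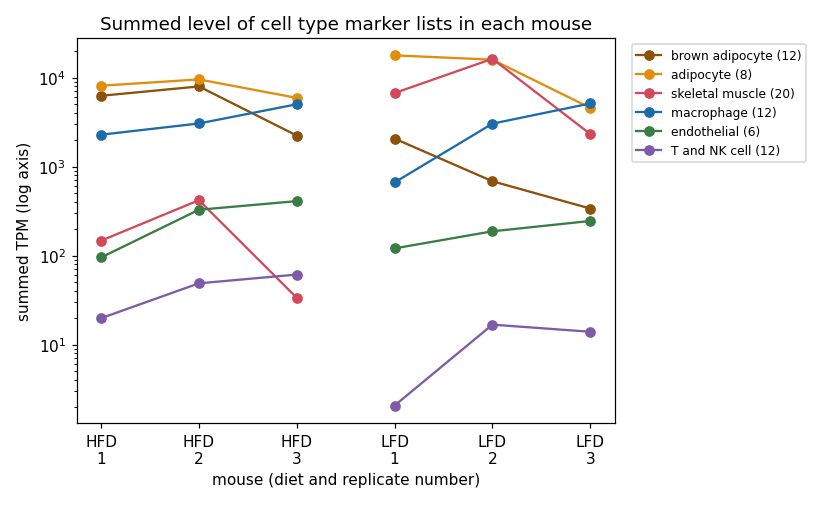
Summed TPM (log axis) of 6 lists of cell type markers in each mouse, with the number of genes per list in the legend and lines joining the mice of a diet. The skeletal muscle list lies between 33.5 and 419 TPM in HFD-fed mice and between 2320.3 and 16247 TPM in LFD-fed mice, and the brown adipocyte list is lowest in LFD replicate 3.

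Complex I genes were well expressed in both diets. All 45 passed the filter on low counts, and 35 had a mean above 100 TPM over the 6 mice. Ndufa4 had the highest mean (566 TPM), and among the next was Ndufb8, an accessory subunit of the distal membrane arm (491 TPM). Ndufb8 was read at 647, 597 and 283 TPM in HFD-fed replicates 1, 2 and 3 and 807, 356 and 258 TPM in LFD-fed replicates 1, 2 and 3. These values overlap between the diets, and LFD replicate 1 held the highest TPM. The means of the 9 N module genes ran from 76.4 TPM (Ndufs4) to 299 TPM (Ndufv1), and the lowest of the 7 Q module means was 114 TPM (Ndufs8). The assembly factors lay far below most subunits, with means of 10.7 TPM (Ndufaf7) to 28.4 TPM (Ndufaf3). A structural subunit, Ndufa11 of the proximal membrane arm, lay in the same low range, with a mean of 20.5 TPM. Neighbours in this order often do not differ beyond their spread. Summed over the 45 genes, the level was 9845, 10687 and 5457 TPM in HFD-fed replicates 1, 2 and 3 and 10940.0, 6908 and 4321 TPM in LFD-fed replicates 1, 2 and 3, which is 0.432 to 1.09% of all TPM. The mean was 8663 ± 2808 TPM under HFD and 7389.9 ± 3336 TPM under LFD (SD, n = 3), and the diets overlap.

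**Figure D2:**
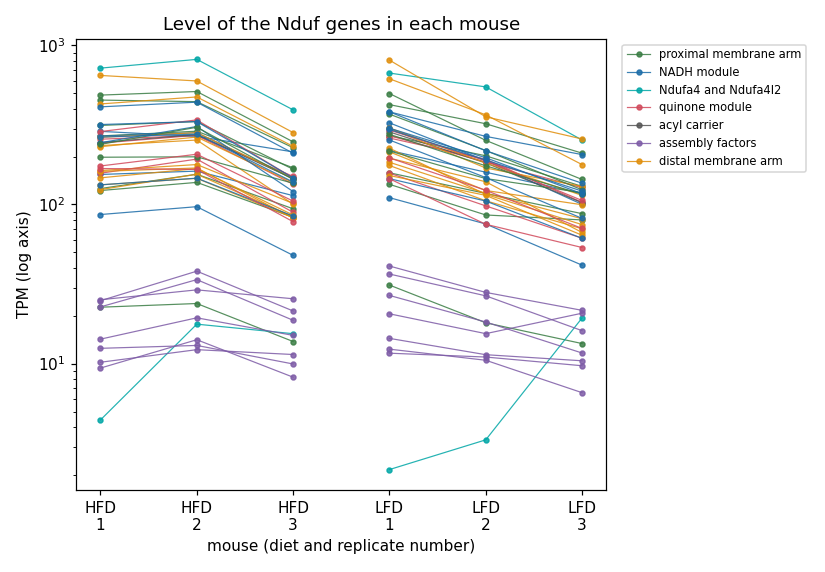
TPM (log axis) of the Nduf genes, 1 gene left out, in each of the 6 mice, coloured by role, with lines joining the values of a gene within a diet. The subunits move as a band that is low in HFD replicate 3 and LFD replicate 3, the assembly factors have means of at most 28.4 TPM, and Ndufa4l2 follows another order.

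The mouse, more than the diet, ordered these genes. On the log2 CPM scale, which divides counts by library size after TMM scaling, LFD replicate 3 had the lowest value of all 6 mice for 43 of the 45 genes, and HFD replicate 3 the lowest within its diet for 44. LFD replicate 1 was highest within its diet for 44, and HFD replicate 1 was highest within the HFD-fed mice for 44. On the TPM scale the top of the HFD-fed mice moved, with HFD replicate 2 highest for 41 genes. The median gene spanned 1.49 log2 units among the 3 HFD-fed mice and 2.20 among the 3 LFD-fed mice, against 0.61 and 1.04 for the median of all 17668 tested genes. For 44 of the 45 genes the SD within a diet was larger than the difference between the diet means, which held for 63.7% of all tested genes. The mice with low complex I expression, both numbered 3, also had the lowest mitochondrial share and the lowest brown adipocyte sum of their diet. Single markers differed from that sum under LFD. Ucp1, Cidea, Elovl3, Dio2 and Zic1 were lower in LFD replicate 2 than in LFD replicate 3, and the other markers of the list were higher. Whether mitochondrial share or brown adipocyte markers set the order was not tested.

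The question of the design is whether HFD feeding changed expression in BAT. For complex I, 0 of 45 genes were called, where a call needed both an adjusted p below 0.01 and a log2 fold change beyond 1.5 in either direction (edgeR quasi-likelihood test, Benjamini-Hochberg adjustment), the same as for all genes, of which 0% were called in either direction. Fitted log2 fold changes, HFD over LFD, ran from -0.10 for Ndufaf3 to 0.93 for Ndufa4l2, with standard errors of 0.39 to 0.74 and adjusted p of 0.745 to 0.995. At an unadjusted p under 0.05 there were 0 members, beside 3.86% of all genes higher and 6.62% lower under HFD. The smallest adjusted p of any gene was 0.170. Of the fold changes 41 were above and 4 below 0 (Ndufaf3, Ndufa2, Ndufb3 and Ndufaf2), with a median of 0.33 against -0.048 over all tested genes. No member had 3 HFD values that all lay above or all below the 3 LFD values, whereas on the log2 CPM scale 6.72% of all genes lay higher and 9.23% lower in that sense, and on the TPM scale 1.65% and 11.6%. DESeq2 called 0 members too, beside 0.355% of all genes higher and 1.02% lower, and the smallest adjusted p of a member was 0.741.

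**Figure D3:**
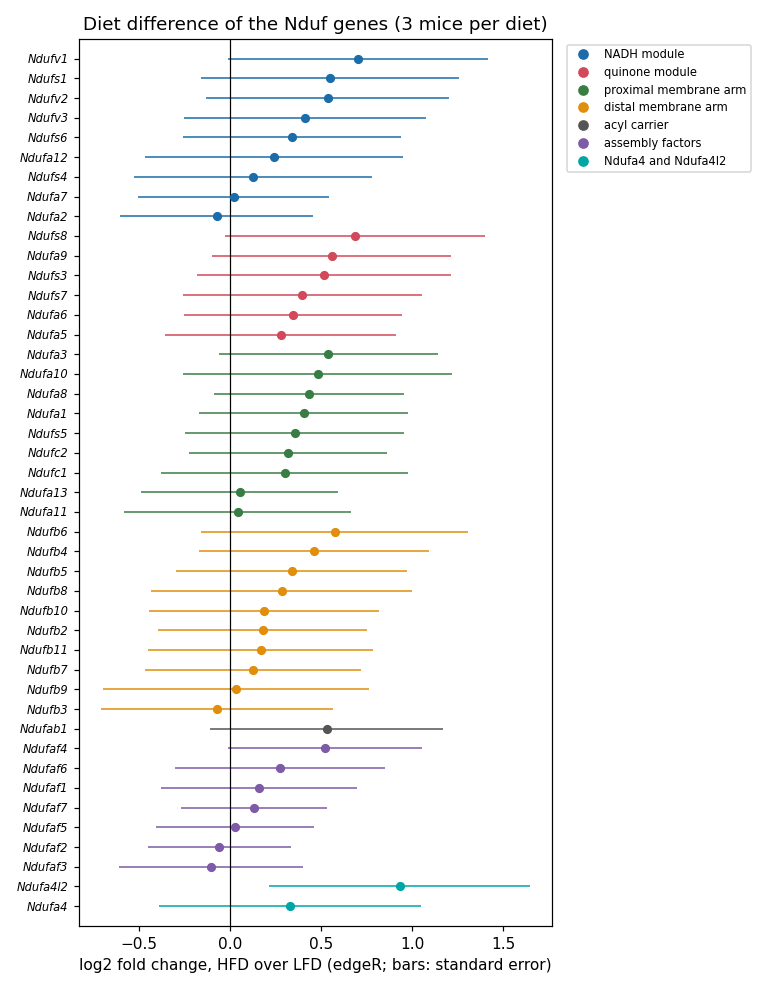
Log2 fold change (HFD over LFD, edgeR) of the Nduf genes, 1 gene left out, grouped by role, with bars for the standard error and a line at 0 for no difference. The estimates run from -0.10 to 0.93, and 0 genes had an adjusted p under 0.01.

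The mice carry the numbers 1 to 3 in each diet, and same-numbered mice deviated together across genes. The sources do not say that mice were matched by number, and the block rests on this pattern in the same data. The p-values of the blocked fit are therefore given as a description. With the replicate number as a block, 13 of the 45 genes had an unadjusted p under 0.05. All 13 were higher under HFD, against 8.75% of all genes higher and 8.76% lower. Among them were Ndufa1, Ndufa10, Ndufa3, Ndufa9, Ndufab1, Ndufb4, Ndufb6, Ndufs1, Ndufs3, Ndufs8, Ndufv1 and Ndufv2. The adjusted p of all members stayed at 0.184 or above, so that 0 members were called in the blocked fit either, as were 0% of all genes in each direction. The median log2 fold change of the 45 genes was 0.51 with the block, and all 45 were above 0, against 49.9% of all tested genes. Within the pairs, the median difference in log2 CPM was -0.028 between the mice numbered 1, 0.77 between those numbered 2 and 0.68 between those numbered 3. The HFD-fed mouse was the higher one for 21, 45 and 44 of the 45 genes in these pairs. In all 3 pairs it was higher for 21 of the 45 genes, beside 21.1% of all tested genes. Because the 45 genes moved together from mouse to mouse, the counts with the block and in the pairs are not 45 separate observations. In the fit without the block, the common direction depended on which mouse was left out, and each such fit leaves the replicate numbers unbalanced between the diets. Without HFD replicate 1 the median was -0.043 with 19 genes above 0, and without LFD replicate 3 it was -0.048 with 17 above 0. Leaving out LFD replicate 1 gave 1.12 with all 45 above 0. For 11 of the 45 genes the HFD values then all lay above the LFD values, against 13.9% of all genes. Leaving out LFD replicate 2 gave 0.14, and leaving out HFD replicate 3 gave 0.63.

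The catalytic subunits, most of which bind the flavin or iron-sulfur clusters or form the quinone site, lay in the upper part of the fitted values. All 7 had a log2 fold change above 0, from 0.40 to 0.70 with a median of 0.54, and 0 of 7 passed the test. Other members reached as high, with Ndufa4l2 (0.93) above all 7 and Ndufb6 (0.57) and Ndufa9 (0.56) above their median. Ndufv1 (chr19:4007384-4012806 on GRCm38), which carries the NADH and flavin site, was read at 410.5, 439 and 210.0 TPM in HFD-fed replicates 1, 2 and 3 and 382, 217 and 136 TPM in LFD-fed replicates 1, 2 and 3. Its fold change was 0.70 ± 0.71 on the log2 scale (SE, adjusted p 0.826), with the LFD value of replicate 1 above the HFD value of replicate 3. Ndufv2 (chr17:66078638-66101559), a cluster-binding partner of Ndufv1, was read at 318, 332 and 147 TPM in the HFD-fed mice and 296, 190.1 and 121 TPM in the LFD-fed mice, with a log2 fold change of 0.54 ± 0.67 and an adjusted p of 0.867. Ndufs1 (chr1:63143596-63176833), the large cluster-binding subunit of the N module, had 244, 309 and 120.5 TPM in the HFD-fed mice and 254, 148 and 81.8 TPM in the LFD-fed mice. The diets overlap for both.

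In the Q module, Ndufs3 (chr2:90894634-90904827), a scaffold of that module, had 287, 339.8 and 147 TPM in the HFD-fed mice and 293, 188 and 106 TPM in the LFD-fed mice. Ndufs7 (chr10:80249121-80256794), which holds the last cluster before the quinone, had 175, 207 and 105 TPM in the HFD-fed mice and 196, 123 and 70.7 TPM in the LFD-fed mice and the lowest log2 fold change of the 7, 0.40 ± 0.66. For both, the replicate 3 of HFD lay below the replicate 1 of LFD. Ndufs8 (chr19:3908863-3912774), a ferredoxin-like subunit, was read at 168, 166 and 77.9 TPM in the HFD-fed mice and 145, 75.1 and 53.6 TPM in the LFD-fed mice, or 0.68 ± 0.71 as a log2 fold change (adjusted p 0.834). Its LFD values of replicates 2 and 3 both lay below every HFD value, and that of LFD replicate 1 did not. As a share of the summed TPM of the 45 genes, the 7 catalytic subunits made up 21.8, 22.1 and 19.4% in the HFD-fed mice and 19.2, 18.3 and 17.5% in the LFD-fed mice. Every HFD value was above every LFD value, by 2.81 percentage points in the mean, and by 4.15 points when expected counts replaced TPM. The lowest HFD value and the highest LFD value were 19.4 and 19.2%. With 3 mice per diet such an order has a smallest exact two-sided p of 0.1, and it was noticed after the values were seen, so it is given without a test. The summed skeletal muscle, brown adipocyte, and T and NK cell markers separated the diets as well, and their part in this share was not tested.

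Accessory subunits had a lower median than the catalytic ones. The 29 genes outside the catalytic core had a median log2 fold change of 0.30, 27 above and 2 below 0. By place in the enzyme, the median was 0.34 in the N module, 0.52 in the Q module, 0.35 in the proximal membrane arm and 0.18 in the distal membrane arm, against -0.048 over all tested genes. Ndufb6, a distal arm subunit, had the highest fold change of the accessory genes, 0.57 ± 0.73 (adjusted p 0.874), at 234, 254 and 100.4 TPM in the HFD-fed mice and 226, 116 and 74.7 TPM in the LFD-fed mice. Ndufa9, a nucleotide-binding subunit at the foot of the Q module, had 157, 193 and 89.3 TPM in the HFD-fed mice and 157, 98.0 and 61.4 TPM in the LFD-fed mice, or 0.56 ± 0.66 as a log2 fold change. In both, LFD replicate 1 was as high as HFD replicate 1 or nearly so. At the other end, Ndufb3 of the distal arm had 124, 155 and 83.9 TPM in the HFD-fed mice and 195, 139 and 66.7 TPM in the LFD-fed mice and a log2 fold change of -0.072 ± 0.64. Ndufa2, a small thioredoxin-like subunit of the N module, had 154, 162 and 114 TPM in the HFD-fed mice and 218, 159 and 117 TPM in the LFD-fed mice and a log2 fold change of -0.073 ± 0.53. Ndufa7, in the same module, had 288, 268 and 214 TPM in the HFD-fed mice and 382, 268 and 206 TPM in the LFD-fed mice and a log2 fold change of 0.021 ± 0.52. In TPM, LFD replicate 1 was the highest of all mice for each of these 3 genes. Ndufab1, the mitochondrial acyl carrier protein that also serves fatty acid synthesis, had 245, 275 and 145 TPM in the HFD-fed mice and 286, 182 and 103 TPM in the LFD-fed mice, which overlap. The fitted signs of Ndufb3 and Ndufa2 turned with the block (0.17 and 0.056), and that of Ndufa7 turned on log2(TPM + 1).

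Assembly factors had fitted values near 0. Their 7 log2 fold changes had a median of 0.13, 5 above and 2 below 0, and 0 passed the test. With the block, 0 of 7 had an unadjusted p under 0.05, against 8.75% of all genes higher and 8.76% lower. A list of 7 genes is too short for this count to set it apart. Ndufaf4, which acts early on the Q module, had the highest value, 0.52 ± 0.53 (adjusted p 0.829), at 22.7, 33.7 and 18.7 TPM in the HFD-fed mice and 26.8, 18.3 and 11.7 TPM in the LFD-fed mice. Ndufaf3, its partner in Q module assembly, had the lowest, -0.10 ± 0.50, at 25.2, 29.1 and 25.6 TPM in the HFD-fed mice and 41.0, 28.0 and 21.6 TPM in the LFD-fed mice. These partners thus stood at both ends of the list, although neither differed from 0 by more than its error. Ndufaf1, a factor of the membrane arm intermediate, had 24.9, 38.1 and 21.4 TPM in the HFD-fed mice and 36.5, 26.7 and 16.1 TPM in the LFD-fed mice, and its log2 fold change was 0.16 ± 0.54. Ndufaf2, a chaperone of late assembly related to Ndufa12, had 14.2, 19.4 and 15.1 TPM in the HFD-fed mice and 20.6, 15.4 and 20.7 TPM in the LFD-fed mice and a log2 fold change of -0.059 ± 0.39. These values overlap as well. Ndufaf5 and Ndufaf7 belong to the methyltransferase family and modify Q module subunits, with log2 fold changes of 0.027 ± 0.43 and 0.13 ± 0.40. Ndufaf5 had 10.2, 12.2 and 11.4 TPM in the HFD-fed mice and 14.4, 11.4 and 10.4 TPM in the LFD-fed mice. Ndufaf7 had 9.38, 14.1 and 8.22 TPM in the HFD-fed mice and 11.6, 11.0 and 9.70 TPM in the LFD-fed mice, with LFD values that lie within the HFD range. Ndufaf6 had 12.5, 13.0 and 9.95 TPM in the HFD-fed mice and 12.3, 10.5 and 6.57 TPM in the LFD-fed mice and a log2 fold change of 0.27 ± 0.57. Ranges of the diets overlap for all 7. Of the summed Nduf level, the assembly factors together made up 1.21, 1.49 and 2.02% in the HFD-fed mice and 1.49, 1.76 and 2.24% in the LFD-fed mice, and in each diet the share was highest in replicate 3.

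Of the other genes that assemble complex I, 9 were found, and 7 had a log2 fold change above and 2 below 0, with a median of 0.11. None of the 9 passed the test, and the smallest adjusted p among them was 0.758. Tmem186 had 9.40, 13.7 and 7.65 TPM in the HFD-fed mice and 8.61, 8.61 and 5.79 TPM in the LFD-fed mice and a log2 fold change of 0.57 ± 0.45, the smallest p of the 9. Foxred1, an oxidoreductase needed for the enzyme, had 47.5, 65.5 and 31.8 TPM in the HFD-fed mice and 48.7, 29.6 and 24.1 TPM in the LFD-fed mice and a log2 fold change of 0.63 ± 0.56. The third by p, 1810043H04Rik, had 27.5, 34.2 and 28.7 TPM in the HFD-fed mice and 32.5, 21.2 and 29.5 TPM in the LFD-fed mice and a log2 fold change of 0.25 ± 0.41. The diets overlap for Foxred1 and 1810043H04Rik, and for Tmem186 the HFD value of replicate 3 lay below the LFD values of replicates 1 and 2. The 2 below 0 were Acad9 (-0.058 ± 0.25), an acyl-CoA dehydrogenase that doubles as an assembly factor, and Tmem261 (-0.072 ± 0.29).

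Ndufa4 and Ndufa4l2 differed in level and in their order across mice. Ndufa4 was read at 719, 816 and 393 TPM in HFD-fed replicates 1, 2 and 3 and 669, 548 and 254 TPM in LFD-fed replicates 1, 2 and 3, and its log2 fold change was 0.33 ± 0.72 (adjusted p 0.937). Ndufa4l2, a paralog known as a target of the hypoxia response, was read at 4.43, 17.7 and 15.4 TPM in HFD-fed replicates 1, 2 and 3 and 2.16, 3.32 and 19.4 TPM in LFD-fed replicates 1, 2 and 3, with 34 to 251 counts per mouse. In TPM its highest value was in LFD replicate 3, where Ndufa4 was lowest, and its lowest in LFD replicate 1. On the log2 CPM scale the highest was 3.60 in HFD replicate 2, beside 3.34 in LFD replicate 3, and the lowest 1.04 in LFD replicate 2. Ndufa4l2 had the highest fitted log2 fold change of the 45 genes, 0.93 ± 0.72, and also the smallest adjusted p, 0.745. The log2 ratio of Ndufa4l2 to Ndufa4 TPM was -7.34, -5.53, -4.67 in HFD-fed replicates 1, 2 and 3 and -8.28, -7.37, -3.71 in LFD-fed replicates 1, 2 and 3. The diet means of this ratio differed by 0.60 (HFD minus LFD), with an exact two-sided permutation p of 0.8 over the 6 mice, for which the smallest possible p is 0.1. Without LFD replicate 1 the difference turned to -0.31. In both diets the ratio was highest in replicate 3, the mouse with the lowest summed brown adipocyte marker TPM of its diet. Under LFD this holds for the sum, and Ucp1 and some other markers were lower in replicate 2.

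Because the subunits moved together from mouse to mouse, each gene was also read as a share of the summed Nduf TPM. The median gene spanned 2.64-fold between its highest and lowest mouse in TPM and 1.35-fold as a share, and 31 of 45 genes stayed within 1.5-fold as a share. Against this common level, 3 genes had shares under HFD that all exceeded those under LFD, and 6 had shares under HFD that all fell short of those under LFD. Dividing every tested gene by the same sum gave 1.36% of genes higher and 7.6% lower. The shares of the members add up to a fixed total, so higher shares of some require lower shares of others. Most tested genes are not part of that sum and lack this bound. The 9 members were picked after their values were seen, and no test was made of them. Ndufs8 made up 1.71, 1.55 and 1.43% in HFD-fed replicates 1, 2 and 3 and 1.33, 1.09 and 1.24% in LFD-fed replicates 1, 2 and 3. Ndufv1 made up 4.17, 4.11 and 3.85% in the HFD-fed mice and 3.49, 3.15 and 3.15% in the LFD-fed mice. Ndufa9 made up 1.60, 1.80 and 1.64% in the HFD-fed mice and 1.44, 1.42 and 1.42% in the LFD-fed mice. Ndufs8 and Ndufv1 are catalytic and Ndufa9 is accessory. Lower shares were found for 6 accessory genes of the N module and of both parts of the membrane arm. Ndufb2 of the distal arm made up 1.35, 1.37 and 1.51% in the HFD-fed mice and 1.61, 1.53 and 1.63% in the LFD-fed mice. Ndufb11, in the same arm, made up 1.49, 1.57 and 1.57% in the HFD-fed mice and 1.68, 1.70 and 1.88% in the LFD-fed mice. Ndufb3 made up 1.26, 1.45 and 1.54% in the HFD-fed mice and 1.79, 2.01 and 1.54% in the LFD-fed mice. For Ndufb2 and Ndufb3 the highest HFD share lay just below the lowest LFD share. Ndufa11, a membrane-spanning subunit, made up 0.230, 0.223 and 0.252% in the HFD-fed mice and 0.285, 0.261 and 0.309% in the LFD-fed mice. Ndufs4, an N module subunit whose loss causes Leigh syndrome, made up 0.878, 0.906 and 0.878% in the HFD-fed mice and 1.01, 1.09 and 0.962% in the LFD-fed mice. Ndufv3, in the same module, made up 2.69, 2.59 and 2.54% in the HFD-fed mice and 2.75, 2.85 and 2.70% in the LFD-fed mice. Sums of the skeletal muscle, brown adipocyte, and T and NK cell markers did not overlap between the diets either, and their part in these shares was not tested. When expected counts replaced TPM, 5 genes were higher, the same 3 with Ndufs1 and Ndufab1, and 5 were lower. Of those 5, 4 were shared, Ndufa5 was added, and Ndufb2 and Ndufv3 no longer separated the diets. When only structural subunits formed the sum, 3 were higher and 5 lower. Ndufb3 was the gene lost there.

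**Figure D4:**
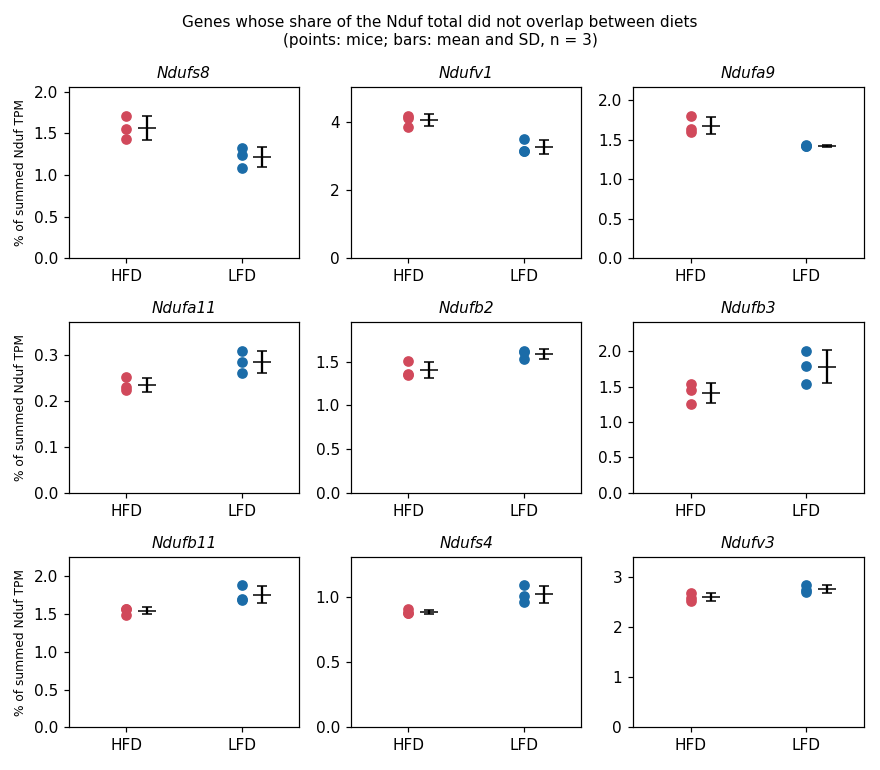
Share of the summed Nduf TPM (%, axes from 0) taken by each of the 9 genes whose values did not overlap between diets, with a point per mouse and a bar for the mean and SD of 3 mice. The top row shows the 3 genes that were higher under HFD (Ndufs8, Ndufv1 and Ndufa9), and the other rows the 6 that were lower.

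Members of the group lie on 16 chromosomes, with Ndufa1 and Ndufb11 on X, and a single pair of neighbours lies within 1000000 bases. That pair is Ndufs8 and Ndufv1, separated by 94609 bases of chromosome 19, both read from the minus strand, and they are also the catalytic subunits with the highest fold changes. To show what lies in front of genes on both sides of the share comparison, the 250 bases before the RefSeq start (GRCm38.p6) are printed for Ndufs8 and Ndufa9, whose share was higher under HFD, and for Ndufa11 and Ndufb2, whose share was lower, in the case of Ndufb2 on the TPM scale alone. Capitals mark matches on either strand to the motifs NRF1 (GCGCA, any base, then GCGC), ERR (AAGGTCA), ETS (CCGGAAG), YY1 (AANATGGCG) or CREB (TGACGTCA), factors known for work on nuclear genes of the respiratory chain. The Ndufs8 window (chr19:3912775-3913024, minus strand) and that of Ndufa9 (chr6:126849145-126849394, minus strand) hold no capitals. The window of Ndufa11 (chr17:56717512-56717761, plus strand) has a CREB match at -158 to -151 and an NRF1 match at -60 to -51 from the start. The window of Ndufb2 (chr6:39592315-39592564, plus strand) has an ERR match at -181 to -175 and a CREB match at -14 to -7. Among the genes not printed, Ndufv1 (higher share) and Ndufb3, Ndufs4 and Ndufv3 (lower share) have no match in these 250 bases. Ndufb11 (lower share) has a YY1 match at -211 to -203. The printed genes therefore do not stand for their side of the share comparison.
Ndufs8: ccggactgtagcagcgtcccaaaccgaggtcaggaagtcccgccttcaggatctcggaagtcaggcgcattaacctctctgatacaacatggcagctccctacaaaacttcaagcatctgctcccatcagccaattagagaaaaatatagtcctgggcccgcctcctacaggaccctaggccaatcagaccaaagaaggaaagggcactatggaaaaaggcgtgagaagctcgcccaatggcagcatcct
Ndufa9: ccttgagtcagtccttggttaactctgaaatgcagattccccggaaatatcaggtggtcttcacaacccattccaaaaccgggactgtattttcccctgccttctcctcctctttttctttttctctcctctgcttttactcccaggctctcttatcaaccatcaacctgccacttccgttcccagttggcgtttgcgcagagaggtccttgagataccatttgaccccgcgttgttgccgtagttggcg
Ndufa11: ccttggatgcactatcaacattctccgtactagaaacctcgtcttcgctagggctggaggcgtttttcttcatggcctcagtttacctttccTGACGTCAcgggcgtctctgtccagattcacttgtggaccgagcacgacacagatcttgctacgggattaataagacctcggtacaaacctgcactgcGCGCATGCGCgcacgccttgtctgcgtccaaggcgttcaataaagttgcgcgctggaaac
Ndufb2: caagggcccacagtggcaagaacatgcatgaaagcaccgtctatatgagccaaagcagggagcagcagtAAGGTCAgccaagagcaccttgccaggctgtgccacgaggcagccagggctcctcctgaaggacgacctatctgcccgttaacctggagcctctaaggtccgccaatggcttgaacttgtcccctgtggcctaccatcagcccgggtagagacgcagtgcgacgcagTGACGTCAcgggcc

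RefSeq windows of 300 bases, 250 before to 50 after the start, were at hand for 39 of the 45 genes. Some genes have several windows, and a gene was counted if any of its windows held the motif. The NRF1 motif was found in 9 of the 39 genes (23.1%), against 5.19% of all 27025 genes with a window and 10.4% of the 11284 tested genes with a window. The YY1 motif was found in 7 (17.9%, against 2.76% and 5.33%), the CREB motif in 3 (7.69%, against 2.03% and 3.39%), the ERR motif in 3 (7.69%, against 5.38% and 4.14%) and the ETS motif in 5 (12.8%, against 9.93% and 18.1%). Ndufb4 held the most matches, with NRF1 at -191 to -182, at -79 to -70 and at -22 to -13 and ERR at -55 to -49. Matches of different motifs did not overlap. Ndufs8 has an ETS match and Ndufa9 a YY1 match in the 50 bases after the start, outside the printed letters. Ndufs4, a gene with a lower share that is not printed, also has a YY1 match there. Windows of Ndufa2, Ndufa4l2, Ndufaf6, Ndufb9 and Ndufs1, among others, were not analysed here. A match is a stretch of letters and was not tested for binding.

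The 7 ND genes of mitochondrial DNA encode the proton-pumping core of the membrane arm, and these subunits join the nuclear ones in the same enzyme. Their summed level was 28188, 27966 and 10332 TPM in HFD-fed replicates 1, 2 and 3 and 14952, 13035 and 4479 TPM in LFD-fed replicates 1, 2 and 3. HFD-fed replicates 1 and 2 stood above every LFD-fed mouse, and HFD replicate 3 below LFD replicates 1 and 2. The 7 log2 fold changes were all above 0, from 0.99 to 1.40 with a median of 1.13, and 0 of 7 passed the test (smallest adjusted p 0.624). mt-Nd1 had 8487, 9624 and 3079.6 TPM in the HFD-fed mice and 5502, 4287 and 1623 TPM in the LFD-fed mice and a log2 fold change of 1.01 ± 0.90. The log2 fold changes of mt-Nd2 (1.27 ± 0.90), mt-Nd3 (1.40 ± 0.80), mt-Nd4 (1.09 ± 0.83), mt-Nd5 (1.13 ± 0.83), mt-Nd6 (1.32 ± 0.80) and mt-Nd4l (0.99 ± 0.75) are of the same size. In the same-numbered pairs, the summed ND level was 1.89, 2.15 and 2.31 times as high in the HFD-fed mouse, where the summed level of the 45 nuclear genes was 0.900, 1.55 and 1.26 times as high. With the block, all 7 ND genes had an unadjusted p under 0.05 and were higher under HFD, against 8.75% of all genes. The smallest adjusted p among the 7 was 0.0793. The ratio of summed ND to summed nuclear Nduf TPM was 2.86, 2.62 and 1.89 in the HFD-fed mice and 1.37, 1.89 and 1.04 in the LFD-fed mice. HFD replicate 3 and LFD replicate 2 were level at this ratio. With expected counts in place of TPM they had 2.32 and 2.53, and the diets overlap. The share of counts on all mitochondrial genes, which the ND sum is part of, was highest in replicate 1 of each diet.

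**Figure D5:**
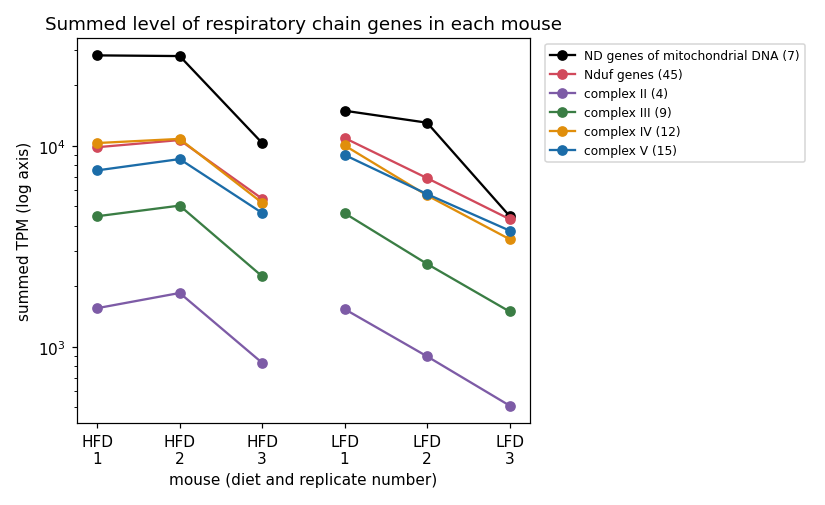
Summed TPM (log axis) in each mouse of the ND genes of mitochondrial DNA, the 45 Nduf genes and the nuclear subunits of complexes II to V, with the number of genes in the legend and lines joining the mice of a diet. Within each diet every sum is lowest in replicate 3.

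Summed by complex, the nuclear subunits of complexes II to V showed the same pattern across mice. In the median, they had a fold change near that of complex I. Single genes did not all follow the sums. Atp5g1, for example, had 38.7, 57.4 and 91.9 TPM in HFD-fed replicates 1, 2 and 3 and 114, 193 and 146 TPM in LFD-fed replicates 1, 2 and 3. Of 40 such genes 35 had a log2 fold change above and 5 below 0, with medians of 0.67 in complex II, 0.43 in complex III, 0.39 in complex IV and 0.24 in complex V. None passed the test. The 5 of these listed genes below 0 were all in complex V, the ATP synthase, namely Atp5g1 (-1.001 ± 0.26), Atp5g2 (-0.41 ± 0.40), Atp5g3 (-1.27 ± 0.54), Atp5j (-0.48 ± 0.41) and Atp5c1 (-0.12 ± 0.63). The first 3 of these encode the same c subunit, and Atp5g1 had an unadjusted p under 0.05 (adjusted p 0.242). Cox6a2, the heart and muscle isoform of a complex IV subunit, was counted with the skeletal muscle markers and not in these lists. With Cox6a2, complex IV would also have held a gene below 0. Cox7a1 and Cox8b were kept in complex IV, and Cox8b was also counted with the brown adipocyte markers. Cox6a2 was read at 1.05, 2.89 and 1.71 TPM in HFD-fed replicates 1, 2 and 3 and 46.1, 116 and 22.4 TPM in LFD-fed replicates 1, 2 and 3, and the diets do not overlap. Its log2 fold change was -4.88 ± 0.72. Its adjusted p in the edgeR fit was 0.170, above the threshold but as small as that of any gene. The paper, testing with DESeq2, reported Cox6a2 as downregulated by HFD at an adjusted p far below its threshold. Of the summed TPM of all these nuclear genes of complexes I to V, the 45 Nduf genes made up 29.2, 28.9 and 29.7% in the HFD-fed mice and 30.3, 31.7 and 31.9% in the LFD-fed mice. All 3 HFD values were below all 3 LFD values, by 2.02 percentage points in the mean. Much of this gap lay in Cox7a1 and Cox8b, isoforms of cytochrome c oxidase subunits found in heart, muscle and brown fat. Without these genes in the sum, the share was 31.7, 30.9 and 31.0% in the HFD-fed mice and 31.4, 32.4 and 32.3% in the LFD-fed mice, which overlap. Cox7a1 had a log2 fold change of 2.18 ± 1.03 (adjusted p 0.530). The Nduf genes as a whole therefore kept a near constant share of the nuclear respiratory chain, between 28.9 and 31.9%, while their summed level ranged from 4321 to 10940.0 TPM.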

How the data were processed

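BAT RNA of 3 HFD-fed and 3 LFD-fed mice was sequenced in single-end reads of 75 bases, and diet and replicate number were taken from the labels. The authors trimmed reads with Trimmomatic 0.36 and estimated gene counts with RSEM 1.3.0 on GRCm38.p4 with Ensembl 84 genes; their own tests used DESeq2 1.10.1. The deposited expected counts divide a read that fits several genes between them and are not normalized. The deposited TPM values divide the counts by effective length and scale each library to a fixed total, so that all other RNA in a library enters them. The deposited posterior SD of a count, used as a score of its uncertainty, was at most 2.43% of the count for these genes (Ndufb4) and under 1% for 38.

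Expected counts were rounded and fitted in R 4.3.3 with edgeR 4.0.16 (quasi-likelihood test, TMM, filterByExpr, no robust fitting, Benjamini-Hochberg over 17668 genes). On simulated data with the dispersion of these mice, the fit recovered 147 of 200 altered genes, with 1 wrong call. With a low dispersion it recovered 194 of 200, with 0 wrong calls. Every altered gene was given a change far larger than any fitted for the members, and genes were drawn independently of each other. These recoveries therefore do not show how well differences of the members' size would be found. Log2 CPM used a prior count of 2. Calls used the study's thresholds, an adjusted p below 0.01 with a log2 fold change beyond 1.5 either way. Total counts were 17156991 to 21603487 per mouse, and the members had 34 to 11024 counts, so that counting error was small beside the spread between mice for most. The labels give the same numbers 1 to 3 in both diets. Deviations from the diet means correlated across genes with r of 0.498, 0.229 and 0.522 in the same-numbered pairs, and the blocked fit is given on that ground; the sources do not say that mice were matched. No 2 mice of a diet were a repeated library (chi-square per degree of freedom 77.6 to 602).

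The members, roles and gene lists were chosen with earlier results of these data known. Named were the catalytic subunits, all Ndufaf genes, the Ndufa4 pair, the 5 highest and 5 lowest fold changes, the 3 highest and 3 lowest levels, the ND genes and the 3 other assembly genes with the smallest p. The genes named for their share and those counted with the block were named after their values were seen. So were Ucp1, Cidea, Elovl3, Dio2, Zic1, Acad9, Tmem261, Cox6a2, Cox7a1, Cox8b, Ndufab1, Ndufb4 and the Atp5 genes. The values of 1 gene are not reported here, although it enters the counts and sums. Alternatives were DESeq2 1.42.0, RLE size factors, other filters, mitochondrially encoded genes left out, the replicate block, limma 3.58.1 on log2(TPM + 1), a looser adjusted p and each mouse left out, and, chosen after seeing the data, other units and denominators for shares. Positions come from GENCODE M21 (GRCm38) and sequences from RefSeq.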

Additional observations from a re-analysis of the deposited data

How the results depend on the processing

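The count of 0 called members held under DESeq2, RLE size factors, both other filters, mitochondrially encoded genes left out, the replicate block, limma on log2(TPM + 1), an adjusted p under 0.05 and each mouse left out. Over all genes, DESeq2 called 411 and limma on log2(TPM + 1) 1. Where the fit blocked on the replicate number, the pairing turned the sign of Ndufa2 (0.056), Ndufaf2 (0.0075), Ndufaf3 (0.091) and Ndufb3 (0.17), and it changed no other call of a member. On log2(TPM + 1), where the median of all genes moved to -0.18 from -0.048, 36 members were above 0, and among the named genes Ndufa11 (-0.0072), Ndufa7 (-0.12), Ndufaf5 (-0.081) and Ndufaf7 (-0.054) turned below 0.

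Leaving out single mice, the members' median log2 fold change ran from -0.048 (without LFD replicate 3) to 1.12 (without LFD replicate 1), and members with HFD values all above the LFD values numbered 0 to 11, the latter without LFD replicate 1, where 13.9% of all tested genes did so. The log2 ratio of Ndufa4l2 to Ndufa4 differed by -0.31 to 1.97, the median of the ND genes by 0.56 to 1.86. Signs turned in at least 1 of these fits for 16 named genes, with log2 fold changes of Ndufa11 -0.37 to 0.94, Ndufa2 -0.44 to 0.62, Ndufa4 -0.19 to 1.26, Ndufa7 -0.36 to 0.71, Ndufaf1 -0.20 to 0.87, Ndufaf2 -0.28 to 0.38, Ndufaf3 -0.44 to 0.63, Ndufaf5 -0.25 to 0.59, Ndufaf6 -0.085 to 0.92, Ndufaf7 -0.10 to 0.56, Ndufb11 -0.22 to 1.00, Ndufb2 -0.17 to 0.96, Ndufb3 -0.49 to 0.78, Ndufb8 -0.18 to 1.33, Ndufs4 -0.28 to 0.97 and Ndufs7 -0.0060 to 1.31. Among the added settings, expected counts gave 5 genes with a higher share and a catalytic share that was 4.15 points higher, and leaving out Cox7a1 and Cox8b reduced the difference in the share of the respiratory chain to -0.876 points. The cause of these moves was not tested. With 3 mice per diet and standard errors of 0.39 to 0.74, the design limits what can be seen of smaller differences.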
